A study of Mus musculus with 12 samples.

Results

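Respiratory chain genes of the nuclear genome were examined in mouse liver and in liver tumors that lack the transcription factors E2f7 and E2f8. The members were all genes whose symbols start with Ndufa, Ndufb, Ndufc, Ndufs, Ndufv, Uqcr, Cox4 to Cox8 or Atp5, plus Sdha, Sdhb, Sdhc and Sdhd. These were 84 of the 19012 genes listed. They comprised 34 genes of complex I, 4 of complex II, 7 of complex III, 18 of complex IV and 15 of complex V. Ndufa4 has a complex I name but is now placed in complex IV and was counted there. The other 6 genes carry a matching symbol without coding for a chain subunit. They were the complex I assembly factor Ndufaf1, the supercomplex assembly factor Cox7a2l, the Ndufa4 paralog Ndufa4l2, the ATP synthase factor B gene Atp5s with its relative Atp5sl, and Cox4nb, which is named only for lying next to Cox4i1.

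RNA was sequenced from 4 liver tumors and 4 livers of E2F7/8 DKO (double knockout) mice, and from 4 wild-type livers. In the names of the deposited data, each DKO tumor shares a code with the DKO liver of the same number, and the wild-type livers carry other codes. The codes are read here as animals, which the labels do not state. On that reading every DKO liver comes from a tumor-bearing animal. In the livers the effects of the genotype and of a tumor elsewhere in the organ then cannot be told apart. Age, sex, strain, the cells in which the genes were deleted and the driver of the deletion were not among the sources used here. Levels are given as RPKM, reads per kilobase of exon scaled to the depth of the library, which compares genes per unit of length. Beyond these codes, nothing in the labels says that libraries of a group are separate animals, and p-values then measure only the spread between these samples.

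Libraries held 7.985 to 15.956 M reads (M for mega). E2f7 had 3 to 21 reads in DKO tumors, 14 to 22 in DKO livers and 6 to 13 in wild-type livers. E2f8 had 96 to 562 reads in DKO tumors, 94 to 753 in DKO livers and 77 to 132 in wild-type livers. The deleted exons are not named in the labels, and reads counted over whole transcripts do not check the genotype. All DKO tumors carry the tag L03 in the names of the deposited data and all DKO livers the tag L02, while wild-type livers 1 and 2 carry L02 and wild-type livers 3 and 4 carry L03. The meaning of the tags is not stated. Hepatocyte markers were abundant in every library, with a summed level of 73000 to 133000 RPKM in DKO tumors, 45300 to 118000 in DKO livers and 51800 to 77200 in wild-type livers over 7 genes. Albumin (Alb) averaged 80950, 53330 and 46020 RPKM in the same groups, within mean sums of 100100, 74060 and 65940 RPKM. Over the 7 genes the median log2 difference between DKO tumors and wild-type livers was -0.82, with 4 lower and 3 higher. Alb alone took 12.8 to 24.5% of reads in listed genes in DKO tumors, 4.68 to 21.8% in DKO livers and 7.63 to 12.2% in wild-type livers.

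The respiratory chain lies in the inner mitochondrial membrane. Complexes I and II take electrons from NADH and succinate, complex III passes them on to cytochrome c, complex IV gives them to oxygen, and complex V, the ATP synthase, uses the proton gradient made by complexes I, III and IV to make ATP. Hepatocytes are rich in mitochondria and run much of their biosynthesis, urea production and fatty acid oxidation through them. All subunits of complex II are coded in the nucleus, whereas the other complexes also hold subunits coded in mitochondrial DNA, which were not analysed here.

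The 76 genes that passed the filter on low values, at least 0.5 RPKM in at least 4 libraries, had mean levels between 0.509 and 680 RPKM over the 12 libraries, with a median of 79.7 RPKM. The highest level was that of Atp5b, the catalytic beta subunit of ATP synthase, followed by Atp5e, the epsilon subunit of its rotor shaft, with a mean of 545 RPKM. Cox4i1, the common form of cytochrome oxidase subunit IV, averaged 519 RPKM, and Atp5g3, 1 of 3 genes for the c subunit of the membrane ring, averaged 426 RPKM. Ndufb9, an accessory subunit, was the highest gene of complex I at 332 RPKM. Sdhd, a membrane anchor of succinate dehydrogenase, led complex II at 170 RPKM, and Uqcrh, the hinge subunit, led complex III at 300 RPKM.

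Where a complex IV subunit has tissue-specific forms, the 12 libraries held mainly the common or liver form. Cox6a1, the liver form of subunit VIa, averaged 218 RPKM over the 12 libraries, while Cox6a2, the heart and muscle form, averaged 0.0384 RPKM and ranged from 0 to 0.237 RPKM. Cox7a2, the liver form of subunit VIIa, averaged 139.5 RPKM and its heart and muscle form Cox7a1 averaged 0.82 RPKM. Cox8a, the common form of subunit VIII, averaged 160 RPKM, and its muscle form Cox8b averaged 0.1495 RPKM and ranged from 0 to 0.69 RPKM. The testis genes Cox7b2 and Cox8c had 0 reads in all 12 libraries, which allows levels of up to 0.346 to 0.692 RPKM for Cox7b2 and 0.395 to 0.789 RPKM for Cox8c at 3 reads per library. Cox4i2, a form of subunit IV best known from lung, ranged from 0 to 1.005 RPKM, and Cox6b2, the testis form of subunit VIb, from 0.121 to 0.736 RPKM. Of the other c subunit genes, Atp5g1 ranged from 0.165 to 0.540 RPKM and Atp5g2 from 0 to 0.650 RPKM. These 6 forms of complex IV subunits, without Cox7a1, and the c subunit genes were the 8 members that did not pass the filter. A further 3 passed it mainly through the livers. Cox7a1 reached 0.5 RPKM in 1 DKO tumor, 4 DKO livers and 4 wild-type livers, Ndufs5 in 0 DKO tumors, 3 DKO livers and 2 wild-type livers, and Atp5l in 0 DKO tumors, 4 DKO livers and 2 wild-type livers, so lower values in tumors were in part a condition of their being tested.

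Several subunits that every chain needs were listed at very low levels beside their partners, and some of these share much of their sequence with transcripts of other genes. In GENCODE transcripts, 85.3% of all 35-base stretches of Atp5l, which codes for subunit g of ATP synthase, also occurred in transcripts of other genes, and Atp5l averaged 0.93 RPKM. The shares were 87.7% for Atp5g2 at 0.249 RPKM, 57.9% for the complex I gene Ndufa12 at 6.58 RPKM, 54.5% for Cox7c at 4.54 RPKM, 46.0% for Ndufs5 at 0.509 RPKM and 38.0% for Ndufb4 at 3.94 RPKM. High sharing did not always go with a low level. Atp5o and Atp5h, stator subunits of ATP synthase with 60.4 and 58.5% of stretches shared, averaged 75.2 and 50.7 RPKM. Of the 8 genes with at least 50% of stretches shared, 4 had a mean under 10 RPKM, against 10 of the 50 genes with under 10% shared, which include the muscle and testis forms. The labels do not say how reads of such copies were counted, and the levels of these genes, and any difference in them, are uncertain.

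**Figure D1:**
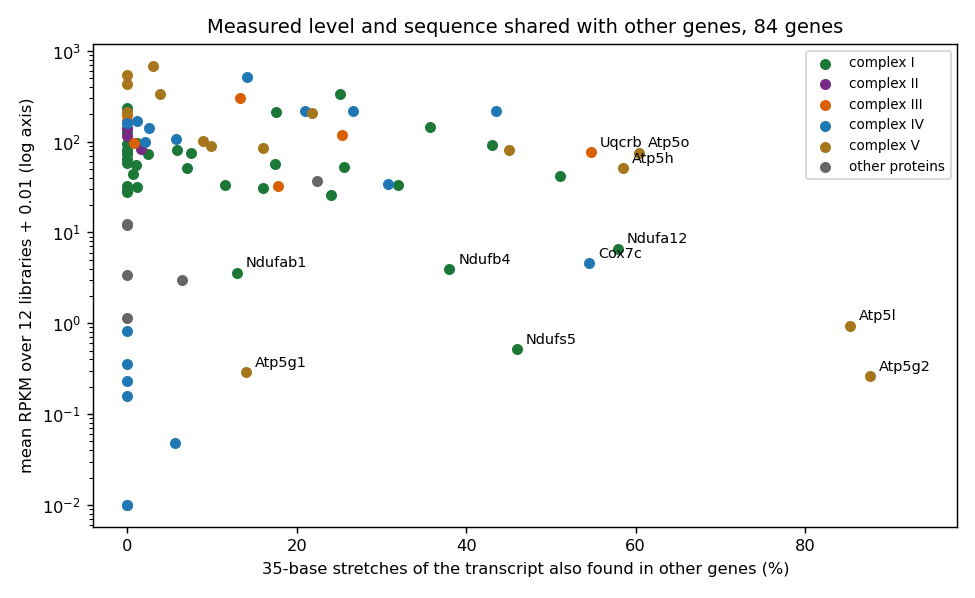
Mean RPKM over 12 libraries plus 0.01, on a log axis, against the percent of 35-base stretches of the transcript that also occur in other genes, 1 point per gene and 1 colour per complex, for 84 genes. Atp5g2, Atp5l, Ndufa12, Cox7c, Ndufs5 and Ndufb4 combine 38.0% or more of shared stretches with means under 10 RPKM, while Atp5o, Atp5h and Uqcrb lie at 54.7% or more with means of 50.7 to 76.7 RPKM.

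Promoters of respiratory chain genes often carry sites for the activators NRF1 and GABP (also known as NRF2), which are known for their role in mitochondrial biogenesis, and E2F factors bind sites of their own near cell cycle genes. The 250 bases before the start of 68 of the 84 genes were found in RefSeq (GRCm38.p6), in 74 windows, and both strands were searched for GCGCA and GCGC with any 1 base between them (NRF1), CCGGAAG (GABP) and TTTCCCGC or TTTGGCGC (E2F). The NRF1 letters were present in 17.6% of the windows of respiratory chain genes, in 7.95% of windows of all tested genes and in 3.74% of all 32851 windows. The GABP letters were present in 17.6, 13.0 and 6.91%, and the E2F letters in 2.7, 2.28 and 1.3%, in the same order. The E2F letters stood before Cox5a and Cox8a. Shown here are the windows of Cox7c and Ndufb7, which had the smallest adjusted p-values between DKO tumors and wild-type livers, of Atp5e, which had the smallest p-value between DKO and wild-type livers, and of Cox6a1 as the gene with the highest mean level among 11 tested genes with the NRF1 letters. Each is written 5′ to 3′ towards the gene, with matched letters in capitals.
Cox7c: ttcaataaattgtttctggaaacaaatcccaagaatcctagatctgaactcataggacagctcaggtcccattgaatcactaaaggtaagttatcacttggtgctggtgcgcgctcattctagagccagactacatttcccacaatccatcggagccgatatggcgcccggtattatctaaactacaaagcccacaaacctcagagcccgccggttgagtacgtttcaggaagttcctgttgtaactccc
Ndufb7: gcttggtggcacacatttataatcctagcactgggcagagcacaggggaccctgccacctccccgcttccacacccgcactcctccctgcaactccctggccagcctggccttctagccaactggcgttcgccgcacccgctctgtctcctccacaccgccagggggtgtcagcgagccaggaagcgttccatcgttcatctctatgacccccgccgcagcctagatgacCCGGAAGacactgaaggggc
Atp5e: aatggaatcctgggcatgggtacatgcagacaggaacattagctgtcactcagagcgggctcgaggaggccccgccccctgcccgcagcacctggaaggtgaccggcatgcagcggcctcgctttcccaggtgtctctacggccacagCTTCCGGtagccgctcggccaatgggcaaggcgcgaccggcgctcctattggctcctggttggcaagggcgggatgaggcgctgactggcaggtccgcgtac
Cox6a1: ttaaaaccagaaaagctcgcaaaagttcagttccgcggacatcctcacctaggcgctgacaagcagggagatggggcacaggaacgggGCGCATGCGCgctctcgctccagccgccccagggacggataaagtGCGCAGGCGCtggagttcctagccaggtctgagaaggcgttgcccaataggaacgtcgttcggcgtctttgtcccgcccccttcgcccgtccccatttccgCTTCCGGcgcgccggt
The Cox7c window (chr13:86046796-86047045, minus strand) held none of the letters, and the Ndufb7 window (chr8:83566508-83566757, plus strand) held GABP letters starting at -20 from the gene's start. The Atp5e window (chr2:174464102-174464351, minus strand) held them at -102. The Cox6a1 window (chr5:115348959-115349208, minus strand) held NRF1 letters at -162 and -117 and GABP letters at -16, and no matches overlapped in these windows. The median log2 difference of DKO tumors against wild-type livers was -0.40 over 11 tested genes with the NRF1 letters and -0.61 over 52 without, and it was -0.51 over 13 genes with the GABP letters and -0.63 over 50 without.

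DKO tumors had lower levels of nearly all respiratory chain genes than wild-type livers, in all complexes, yet no single gene passed the test across all genes. The log2 difference (limma on log2(RPKM + 1)) was negative for 73 of the 76 tested genes, where 52.9% of all 11351 tested genes were negative. Its median was -0.54 over the members, or 0.69 times, and -0.02 over all tested genes. None of the 76 had a Benjamini-Hochberg adjusted p under 0.05, while 1.9% of all tested genes did in either direction and 0.67% did as lower. At an unadjusted p under 0.05, 41 members were lower and 0 higher, against 10.4% of all tested genes lower and 8.77% higher. Among genes with a mean of 50 RPKM or more, 47.1% of 51 members and 29.0% of all tested genes were lower at that p. In 26 members, 34.2%, every tumor lay below every wild-type liver, against 6.32% of all tested genes, and in 0 every tumor lay above, against 5.57%. Cox7a1, Ndufs5 and Atp5l, which passed the filter through the livers, are among the 73, and Cox7a1 is also among the 26 and the 41. With limma's voom on the recovered reads, 0 members passed and 46 had an unadjusted p under 0.05. In bulk tissue, fewer cells of a type and less RNA per cell cannot be told apart. The count of 41 was 24 without tumor 1, and leaving out wild-type liver 1 or 4 gave 20 or 27. In these fits 5 members passed the adjusted threshold without tumor 3 or without DKO liver 4, 2 without tumor 4 (Cox7a1 and Atp5sl) and 1 without DKO liver 1 or 3. Over all tested genes 413, 270, 168, 203 and 284 passed without tumor 3, DKO liver 4, tumor 4, DKO liver 1 and DKO liver 3, in place of 216. Among the libraries with the tag L03 alone, the median was -0.50 and 72 members were negative, with 22 at an unadjusted p under 0.05, and with the tag as a covariate in all libraries 12 were lower and 1 higher at that level. With quantile normalization the median was -0.31 and 25 members were lower at that level, and without DKO animals 1 and 2 the values were -0.36 and 7. Over all tested genes the medians in those settings were -0.01 and 0.11. The share of all tested genes at an unadjusted p under 0.05 was counted only in the main fit, so such counts from the other fits have no comparison.

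The summed level of complex I was 1375, 1925, 2252 and 2035 RPKM in DKO tumors 1 to 4, 2968, 2989, 3021 and 1900.4 RPKM in DKO livers and 3459, 2570.2, 2326 and 2850.5 RPKM in wild-type livers. Tumors lay below all wild-type livers, and DKO liver 4 lay among the tumors. Complex IV summed to 1058, 1414, 1703 and 1656 RPKM in DKO tumors, 2503, 2049, 2408 and 1303 RPKM in DKO livers and 2755, 1717, 1817 and 2244 RPKM in wild-type livers. Here too the tumors lay below the wild-type livers, the highest tumor at 1703 RPKM and the lowest wild-type liver at 1717 RPKM. Complex V summed to 1724, 2557, 2887 and 2272 RPKM in DKO tumors, 3330.3, 3684, 3472 and 2406 RPKM in DKO livers and 3611, 2694, 2705 and 3234 RPKM in wild-type livers, so that tumor 3 overlapped with wild-type livers. Complex II ranged from 264 to 501.5 RPKM in DKO tumors, 431 to 635 in DKO livers and 469 to 678 in wild-type livers, and complex III from 577 to 866 RPKM in DKO tumors, 659.5 to 1205 in DKO livers and 1013 to 1438 in wild-type livers. All members together took 0.52 to 0.907% of reads in DKO tumors, 0.715 to 1.11% in DKO livers and 0.904 to 1.21% in wild-type livers.

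**Figure D2:**
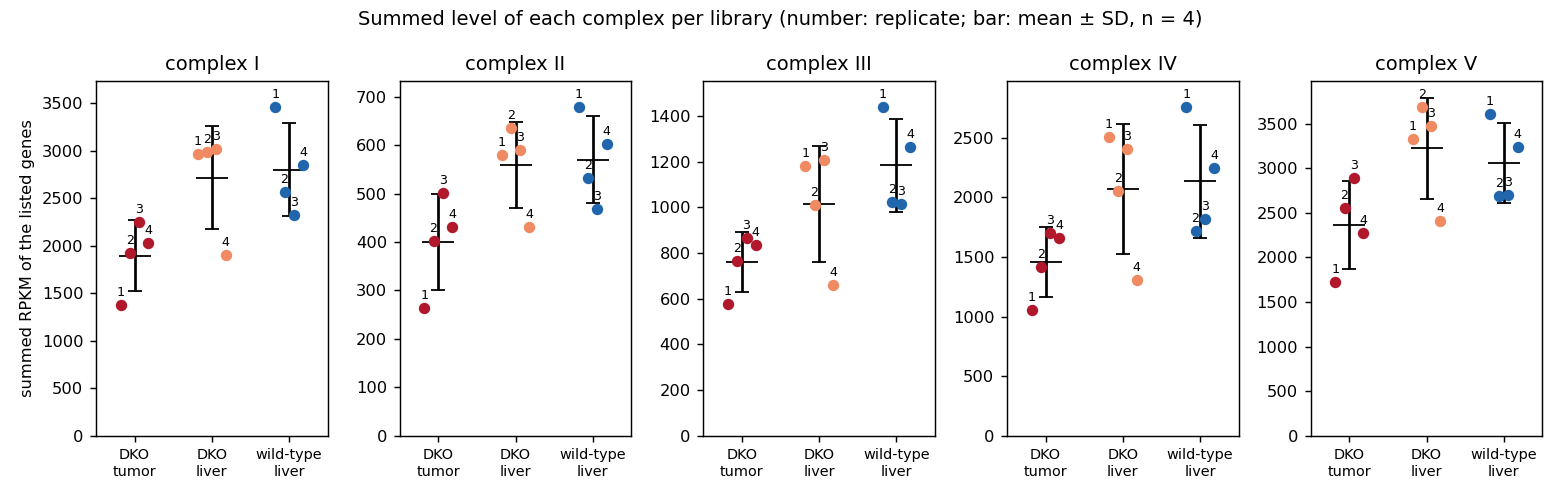
Summed RPKM of the listed genes of each complex, 1 panel per complex with its own axis from 0, with 1 numbered point per library and the mean ± SD of 4 libraries per group. Complex I averaged 1897 ± 373 RPKM in DKO tumors, 2720 ± 547 in DKO livers and 2802 ± 488 in wild-type livers, and DKO liver 4 lies at the level of the tumors in every panel.

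In complex I, 33 of 34 genes had negative differences between DKO tumors and wild-type livers, 19 had an unadjusted p under 0.05, and the median was -0.63. The 33 include Ndufs5, which passed the filter through the livers. Of all tested genes 10.4% were lower at that p, and of all tested genes with a mean of 50 RPKM or more 29.0% were. The 7 core subunits, which carry out electron transfer, had a median of -0.44, and the 27 accessory subunits had -0.65. Ndufb7 (mm9 chr8:86090656-86095521), an accessory subunit, had 10.5, 16.1, 20.6 and 21.2 RPKM in DKO tumors, 38.3, 42.5, 49.0 and 22.2 RPKM in DKO livers and 56.6, 38.4, 29.4 and 33.4 RPKM in wild-type livers. All tumors lay below all livers of both kinds, with a log2 difference from wild type of -1.16 ± 0.28 (SE; limma adjusted p = 0.0516). Ndufa3 (mm9 chr7:3568974-3571762), an accessory subunit with the most negative difference of the class, had 13.1, 12.2, 19.0 and 15.4 RPKM in DKO tumors, 52.4, 24.6, 52.3 and 10.2 RPKM in DKO livers and 61.0, 44.1, 21.0 and 28.8 RPKM in wild-type livers. The tumors were alike and low, the livers spread widely, and the difference of -1.22 ± 0.46 had a limma adjusted p of 0.176. Ndufs8, a core iron-sulfur subunit picked out after its values were seen, averaged 20.8 ± 2.64 RPKM in DKO tumors, 30.5 ± 5.43 RPKM in DKO livers and 33.0 ± 4.16 RPKM in wild-type livers (SD, n = 4). Every tumor lay below every liver, and its limma adjusted p against wild type was 0.0629.

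The most abundant complex I genes gave the same direction with overlap in part. Ndufb9 had 154, 251, 289 and 216 RPKM in DKO tumors, 368, 495, 306 and 421 RPKM in DKO livers and 462, 361, 284 and 373 RPKM in wild-type livers, so that only tumor 3 reached the lowest wild-type liver. Its difference from wild type was -0.71 ± 0.24 (limma adjusted p = 0.13). Ndufa6, an accessory subunit, averaged 178 ± 51.9 RPKM in DKO tumors, 237 ± 99.6 RPKM in DKO livers and 292 ± 60.5 RPKM in wild-type livers (SD, n = 4), with a difference from wild type of -0.74 ± 0.34 (limma adjusted p = 0.253). The exception was Ndufab1, which is also the mitochondrial acyl carrier protein of lipoic acid synthesis. It averaged 3.48 ± 0.531 RPKM in DKO tumors and 3.30 ± 0.703 RPKM in wild-type livers (SD, n = 4), a difference of 0.07 ± 0.16 that was -0.01 without wild-type liver 1. Ndufb4, with many shared stretches, averaged 2.42 ± 0.971 RPKM in DKO tumors, 3.55 ± 1.50 RPKM in DKO livers and 5.84 ± 2.32 RPKM in wild-type livers (SD, n = 4).

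All 4 subunits of succinate dehydrogenase were lower in DKO tumors, with a median of -0.44. Of these, 2 had an unadjusted p under 0.05, against 10.4% of all tested genes lower and 29.0% of those at 50 RPKM or more. Sdhb (mm9 chr4:140517185-140535106), the iron-sulfur subunit, had 68.8, 89.5, 142 and 96.5 RPKM in DKO tumors, 169, 164, 162 and 98.7 RPKM in DKO livers and 228, 141, 154 and 189 RPKM in wild-type livers. Tumor 3 just overlapped with wild-type liver 2, and the difference of -0.86 ± 0.26 had a limma adjusted p of 0.0955. Sdhd averaged 137 ± 32.8 RPKM in DKO tumors, 194 ± 22.1 RPKM in DKO livers and 178 ± 26.6 RPKM in wild-type livers, and Sdha, the flavin subunit, averaged 101 ± 27.7, 122 ± 24.5 and 126 ± 23.1 RPKM in the same groups (SD, n = 4).

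All 7 complex III genes were lower in DKO tumors than in livers of wild-type animals, with a median of -0.58. Of these, 5 had an unadjusted p under 0.05, against 10.4% of all tested genes lower and 29.0% of those at 50 RPKM or more. Uqcrq (mm9 chr11:53242449-53244332), a small subunit, had 102, 104, 115 and 179.8 RPKM in DKO tumors, 266, 152, 269 and 70.0 RPKM in DKO livers and 389, 228, 172 and 310.3 RPKM in wild-type livers. Tumor 4 overlapped with wild-type liver 3, and the difference of -1.10 ± 0.40 had a limma adjusted p of 0.154. Uqcrh averaged 239 ± 29.3 RPKM in DKO tumors, 316 ± 72.3 RPKM in DKO livers and 344 ± 49.4 RPKM in wild-type livers (SD, n = 4), with all tumors below all wild-type livers. Uqcrc2, a core protein of the complex, had the smallest difference of the class, -0.34 ± 0.22.

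All 12 tested complex IV genes were lower in DKO tumors than in livers of wild-type animals, with a median of -0.63. Of these, 6 had an unadjusted p under 0.05, against 10.4% of all tested genes lower and 29.0% of those at 50 RPKM or more. Cox7a1, which passed the filter through the livers, is among the 12 and the 6. Cox7c (mm9 chr13:86184402-86186399), the gene for subunit VIIc, had 2.09, 2.63, 3.12 and 1.78 RPKM in DKO tumors, 8.47, 4.66, 4.52 and 2.40 RPKM in DKO livers and 6.14, 5.22, 8.24 and 5.16 RPKM in wild-type livers. All tumors lay below all wild-type livers, and the difference of -1.07 ± 0.26 had the smallest limma adjusted p of all members, 0.0514. The Cox7c transcript shares 54.5% of its stretches with other genes and its level was far below that of the other subunits. Cox4i1 (mm9 chr8:123192189-123198108) had 240.1, 349.7, 494 and 496 RPKM in DKO tumors, 734, 569, 672 and 359.5 RPKM in DKO livers and 678, 485, 523 and 632 RPKM in wild-type livers. The groups overlapped, and the difference of -0.60 ± 0.29 had a limma adjusted p of 0.274.

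Cox5a, the gene for subunit Va, stood closest to 0 in complex IV, with 208 ± 44.2 RPKM in DKO tumors, 225 ± 31.6 RPKM in DKO livers and 224 ± 62.8 RPKM in wild-type livers (SD, n = 4) and a difference from wild type of -0.08 ± 0.25. That difference was 0.05 without tumor 1, 0.04 without wild-type liver 3 and 0.31 after quantile normalization. Cox7a1, the muscle form of subunit VIIa, was picked out after its values were seen. It had 0.171, 0, 0.191 and 0.727 RPKM in DKO tumors, 1.58, 0.817, 1.33 and 0.884 RPKM in DKO livers and 1.03, 0.853, 0.919 and 1.34 RPKM in wild-type livers, resting on a mean of 3.58 reads per library. Since it passed the filter through the livers, these values are a description only. Summed markers of skeletal muscle and brown fat stayed between 0.15 and 1.81 RPKM in all libraries.

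Of 13 tested ATP synthase genes, 12 were lower in DKO tumors than in livers of wild-type animals, with a median of -0.47. Of these, 6 had an unadjusted p under 0.05, against 10.4% of all tested genes lower and 29.0% of those at 50 RPKM or more. The catalytic head had a median of -0.42 (2 genes), the rotor shaft -0.30 (3), the stator -0.51 (4) and the membrane part -0.53 (4). Atp5l, which passed the filter through the livers, is among the 12 and among the 4 of the membrane part. Atp5b (mm9 chr10:127520362-127527443) had 385, 593, 768 and 494 RPKM in DKO tumors, 796, 860.4, 827 and 591 RPKM in DKO livers and 793, 661, 661 and 733 RPKM in wild-type livers. Tumor 3 was as high as the wild-type livers, tumor 1 the lowest of all libraries, and the difference of -0.39 ± 0.24 had a limma adjusted p of 0.399. Atp5k, subunit e of the membrane part, averaged 59.4 ± 17.8 RPKM in DKO tumors, 91.4 ± 32.5 RPKM in DKO livers and 104 ± 32.6 RPKM in wild-type livers (SD, n = 4), and all tumors lay below all wild-type livers. Atp5e did not follow the other genes, with 341, 591, 487 and 424 RPKM in DKO tumors and 551, 444, 329.8 and 506 RPKM in wild-type livers. Its difference from wild type was 0.01 ± 0.24, and it took the opposite sign without tumor 2 (-0.12), tumor 3 (-0.03) or wild-type liver 3 (-0.14).

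The 6 genes that are not chain subunits had a median of -0.42 between DKO tumors and wild-type livers. Cox7a2l (mm9 chr17:83901270-83913640) had 22.1, 19.9, 29.2 and 29.7 RPKM in DKO tumors, 50.8, 44.7, 31.9 and 55.4 RPKM in DKO livers and 41.3, 39.3, 42.1 and 29.9 RPKM in wild-type livers. All tumors lay below all livers of both kinds, with a difference of -0.58 ± 0.20 from wild type (limma adjusted p = 0.14) and of -0.82 ± 0.20 from DKO livers (limma adjusted p = 0.0898). Atp5sl averaged 8.78 ± 4.19 RPKM in DKO tumors, 12.8 ± 1.95 RPKM in DKO livers and 15.2 ± 3.16 RPKM in wild-type livers (SD, n = 4). Ndufa4l2, known as a target of hypoxia-inducible factors, averaged 1.35 ± 0.534 RPKM in DKO tumors, 1.21 ± 0.354 RPKM in DKO livers and 0.872 ± 0.344 RPKM in wild-type livers (SD, n = 4), and its difference from wild type of 0.32 ± 0.19 had a limma adjusted p of 0.397.

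**Figure D3:**
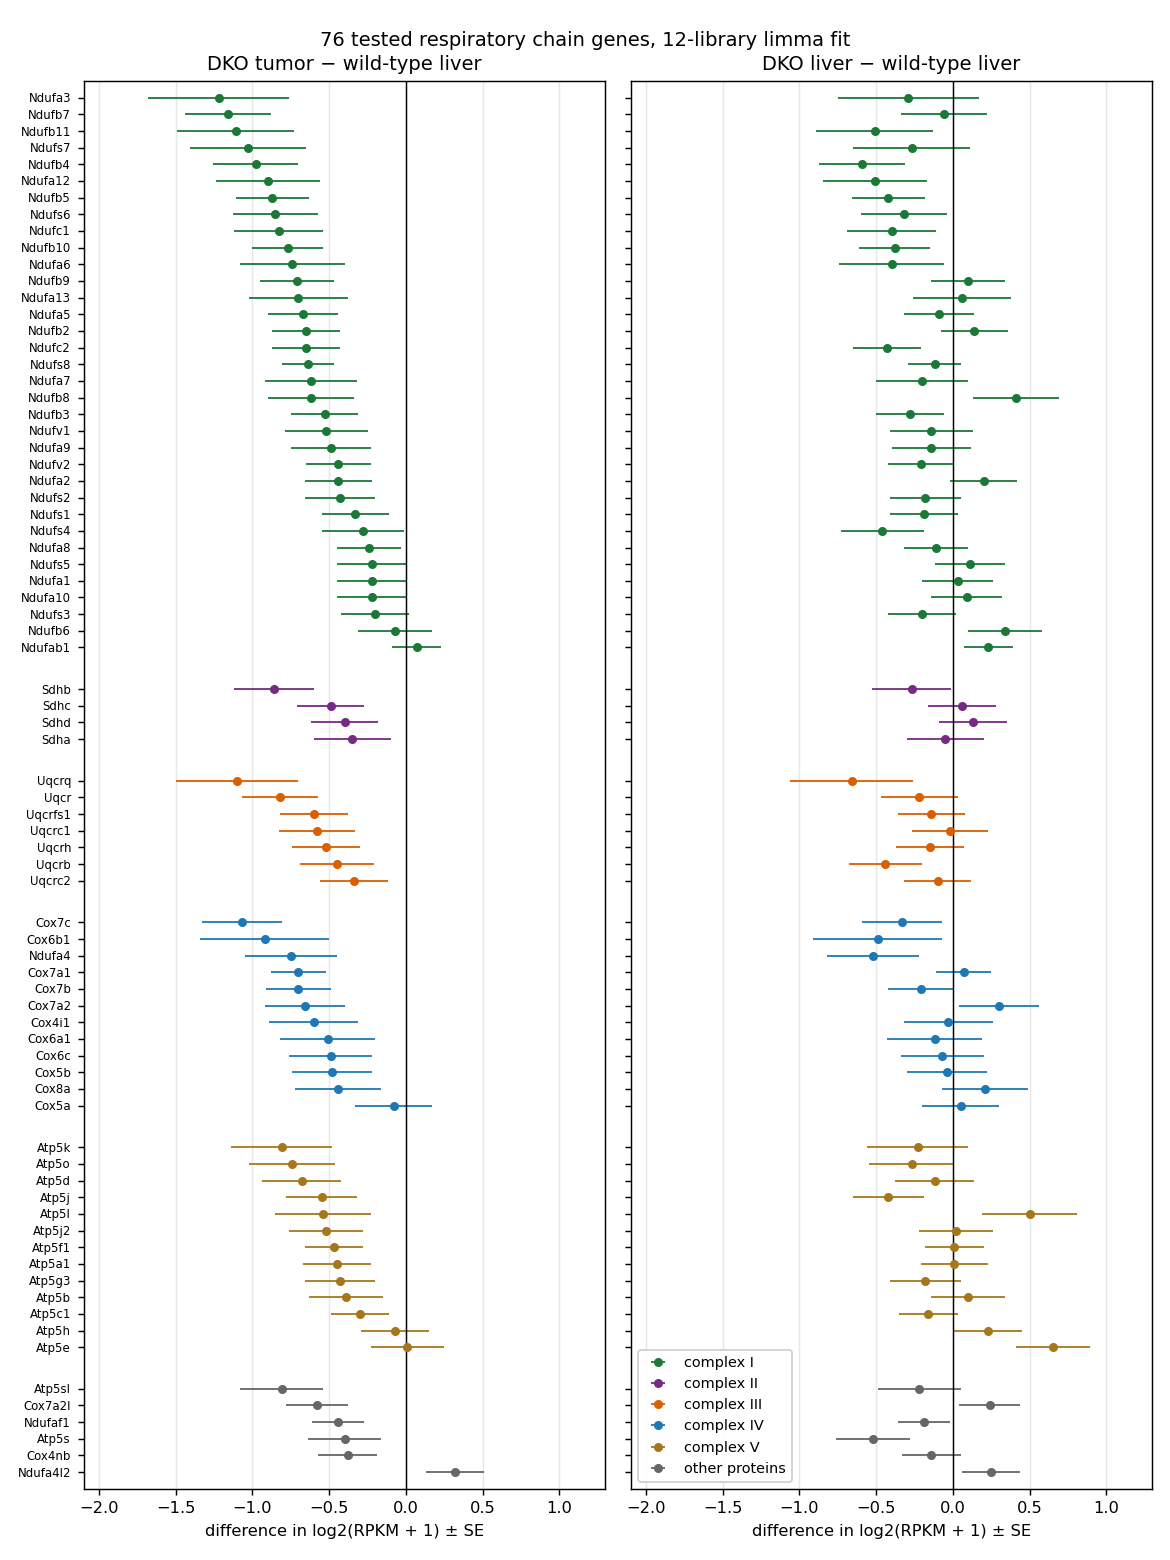
Log2 difference with its standard error (limma on log2(RPKM + 1)) for 76 tested genes, grouped and coloured by complex, for DKO tumor minus wild-type liver on the left and DKO liver minus wild-type liver on the right. On the left 73 genes lie below 0, with a median of -0.54, and on the right 51 lie below 0, with a median of -0.14.

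DKO tumors were also lower than DKO livers, but the animals differed. Of the 76 tested genes, 72 had a negative log2 difference, where 62.8% of all tested genes did, and the median was -0.44 against -0.09 over all tested genes. None passed a limma adjusted p of 0.05, as 0.00881% of all tested genes did, and 25 had an unadjusted p under 0.05, all lower, against 12% of all tested genes lower and 4.01% higher. With voom, 0 passed and 26 had an unadjusted p under 0.05. In 12 members, 15.8%, every tumor lay below every DKO liver, against 4.08% of all tested genes, and in 0 above, against 2.12%. Cox7a1, Ndufs5 and Atp5l, which passed the filter through the livers, are among the 72, and Cox7a1 and Atp5l are also among the 12 and the 25. The count of 25 was 48 without DKO liver 4, 16 without tumor 2, 14 without DKO liver 1 and 12 without tumor 1, DKO liver 2 or DKO liver 3. Without tumor 3, 2 members passed (Ndufb2 and Cox7a2l), where 363 of all tested genes did. The count of 12 was 45 without DKO liver 4. A smaller group separates more easily, and the share over all tested genes was not counted there. Over all tested genes the median was 0.02 with median-of-ratios scaling in place of library totals, and that of the members relative to all genes was -0.32 in place of -0.35. With the animals as pairs, 0 members passed and 18 had an unadjusted p under 0.05, while 71 genes passed in all in place of 1. Tumor and liver of the DKO animals differ in tag throughout and the difference cannot be told apart from it, and a fit with the tag as a covariate, which rests on the wild-type livers of both tags, gave a median of -0.29 over the members and -0.12 over all tested genes, with 1 member at an unadjusted p under 0.05 in place of 25 and a smallest adjusted p of 1.0. Without DKO animals 1 and 2 the median was -0.10, against 0.02 over all tested genes, and 1 member had an unadjusted p under 0.05. Here too the share of all tested genes at that p was counted only in the main fit.

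By class, the medians against DKO livers were -0.39 for complex I, -0.54 for complex II, -0.44 for complex III, -0.46 for complex IV, -0.48 for complex V and -0.24 for the other proteins. Ndufb7 had the most negative difference, -1.10 ± 0.28 (limma adjusted p = 0.0963), followed by Atp5l with -1.05, a gene that no tumor carried past the filter. Atp5l had 0.138, 0.174, 0.154 and 0.441 RPKM in DKO tumors, 1.09, 1.98, 2.33 and 0.952 RPKM in DKO livers and 2.21, 1.38, 0 and 0.310 RPKM in wild-type livers. Most of its stretches are shared with other genes, as given above, and with the tag as a covariate its difference was 0.22. The most positive differences were those of Ndufs4, an accessory subunit of complex I, at 0.17 ± 0.27, and of Atp5s at 0.11 ± 0.24. Ndufs4 averaged 90.8 ± 23.8 RPKM in DKO tumors, 81.5 ± 29.1 RPKM in DKO livers and 109 ± 21.8 RPKM in wild-type livers (SD, n = 4), and its difference was -0.01 with the tag as a covariate and 0 without DKO liver 4. Atp5s averaged 3.03 ± 0.723 RPKM in DKO tumors, 2.72 ± 0.579 RPKM in DKO livers and 4.53 ± 1.83 RPKM in wild-type livers (SD, n = 4), and its difference from DKO livers was -0.25 with the tag as a covariate.

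Within animals, as read from the shared codes, the tumor was lower than its own liver in 3 of 4. The median difference of tumor minus liver over the 76 genes was -1.02 in animal 1, -0.54 in animal 2, -0.39 in animal 3 and 0.19 in animal 4, and over all tested genes it was -0.38, -0.06, -0.16 and 0.21 in the same animals. In animals 1 to 3 the tumor was lower for 74, 72 and 67 of the 76 genes, and in animal 4 for 27. Of all tested genes, 78.0, 55.2, 71.5 and 31.4% were lower in animals 1 to 4. The summed level in the tumor was 0.473, 0.681, 0.768 and 1.07 times that of the liver in animals 1 to 4. In animal 4 every complex had a positive median, from 0.07 for complex II to 0.28 for complex I, and in the other animals every complex had a negative one. The liver of animal 4 was itself low, as given above, and its tumor was close to tumors 2 and 3 in summed level. All 4 tumors were lower than their livers for 23 members, 30.3%, against 16.7% of all tested genes, and 3 of 4 were for 43 members, 56.6%, against 33.9%. The 23 include Cox7a1, Ndufs5 and Atp5l, which passed the filter through the livers.

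**Figure D4:**
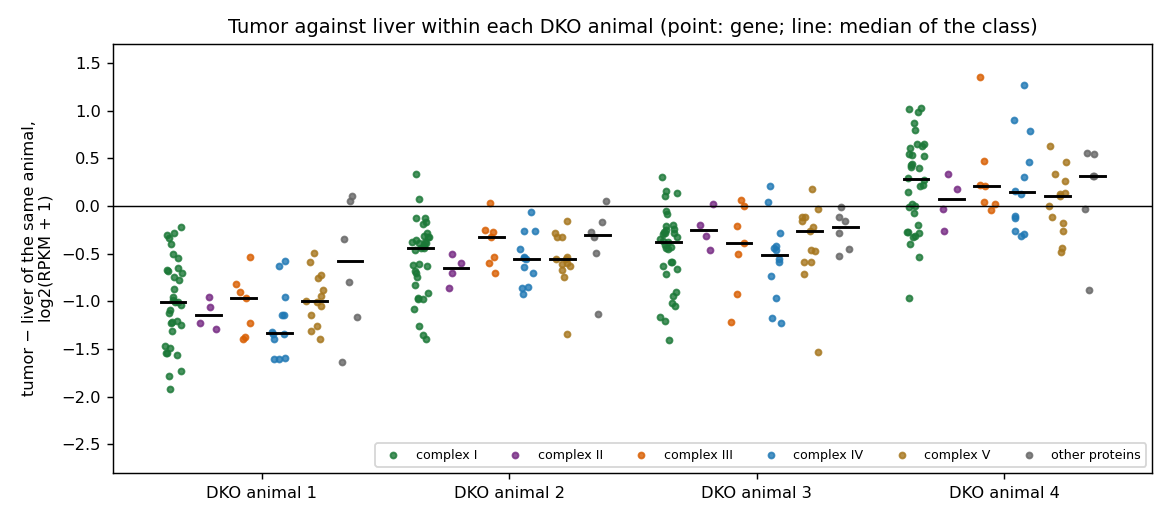
Difference in log2(RPKM + 1) between tumor and liver of each DKO animal, 1 point per gene, coloured by complex, with a black line at the class median, for 76 genes in 4 animals. Animals 1, 2 and 3 have medians over all 76 genes of -1.02, -0.54 and -0.39, and animal 4 has 0.19.

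Between DKO livers and wild-type livers the differences were smaller and mixed in sign. Of the 76 genes, 51 had a negative difference, where 39.5% of all tested genes did, with a median of -0.14 against 0.08 over all tested genes. None passed a limma adjusted p of 0.05, as 0.0% of all tested genes did, and at an unadjusted p under 0.05 there was 1 member higher, against 9.16% of all tested genes, and 1 lower, against 3.24%. With voom, 0 passed and 1 had an unadjusted p under 0.05. With median-of-ratios scaling 10 members were lower and 0 higher at that p. Then 61 were negative, with a median of -0.24 against -0.01 over all tested genes. No member was higher at that p with the tag as a covariate, within 1 tag, without DKO liver 2 or without wild-type liver 3. The share of all tested genes at that p was counted only in the main fit. No member had all DKO livers below all wild-type livers, against 1.96% of all tested genes, and 1 had them all above, against 5.62%. Without DKO liver 4 the count of 51 was 33 and the median was 0.07. Class medians were -0.18 for complex I, 0 for complex II, -0.15 for complex III, -0.05 for complex IV, 0.01 for complex V and -0.17 for the other proteins, and those of complexes I and IV were positive without DKO liver 4, that of complex IV also without wild-type liver 1. That of complex V was negative in 13 of 27 settings, median-of-ratios scaling and voom among them.

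Atp5e (mm9 chr2:174286575-174289601) was the gene that was higher in the main fit, but not in all settings, as given above. It had 682, 917, 677 and 592 RPKM in DKO livers and 551, 444, 329.8 and 506 RPKM in wild-type livers, with every DKO liver above every wild-type liver. Its difference was 0.65 ± 0.24 (unadjusted p = 0.0174, limma adjusted p = 0.337). DKO tumors, at 341, 591, 487 and 424 RPKM, overlapped with the wild-type livers and lay below all DKO livers, tumor 2 by less than 1 RPKM, with a difference of -0.65 ± 0.24 (limma adjusted p = 0.217). The gene that was lower was Atp5s, at 1.95, 2.69, 3.33 and 2.90 RPKM in DKO livers and 5.74, 2.21, 6.23 and 3.93 RPKM in wild-type livers, with overlapping groups and a difference of -0.52 ± 0.24 (unadjusted p = 0.0497, limma adjusted p = 0.402). The most negative differences were those of Uqcrq at -0.66 ± 0.40 and Ndufb4 at -0.59 ± 0.28, with limma adjusted p-values of 0.5 and 0.409. Atp5l stood at 0.50 ± 0.31, a sign that turned to -0.13 with the tag as a covariate.

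Libraries with a large share of albumin reads were those with the lowest respiratory chain levels. Alb took 24.5% of reads in tumor 1, 21.1% in tumor 2 and 21.8% in DKO liver 4, and 4.68 to 14.0% in the other 9 libraries. The median deviation of the 76 genes from the wild-type mean was -0.94, -0.57 and -0.61 in those 3 libraries, against -0.38 to 0.30 in the others. Over all tested genes the deviation was -0.28, -0.06 and -0.08 in the 3 libraries. The lowest of the 12 values was in tumor 1 for 49 of the 76 genes and in DKO liver 4 for 14, and the highest was in wild-type liver 1 for 40. RPKM divides by the whole library, and with Alb reads left out of the total the median difference between DKO tumors and wild-type livers was -0.41 over the members and 0.08 over all tested genes. Tumors 3 and 4 had Alb shares of 14.0 and 12.8%, above the 7.63 to 12.2% of wild-type livers. Their median deviations were -0.32 and -0.38, and those of wild-type livers ranged from -0.21 to 0.30. Without tumor 1, tumor 2 and DKO liver 4 the median difference of DKO tumors from wild type was -0.36, against 0.11 over all tested genes. The fits without Alb reads and without these libraries were chosen after seeing the data. The part of the Alb share in the differences was not tested.

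**Figure D5:**
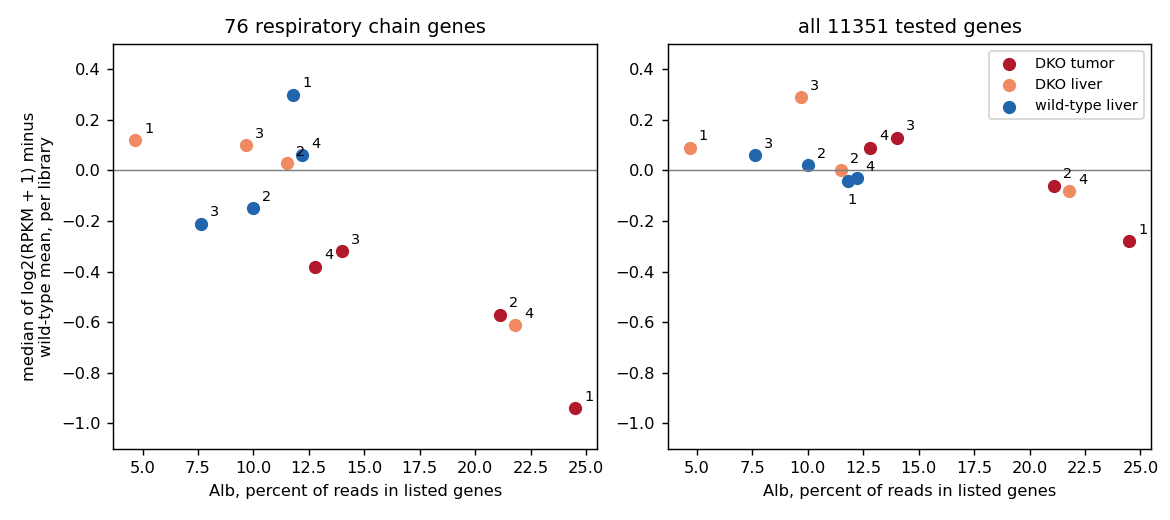
Median deviation of log2(RPKM + 1) from the wild-type mean in each library against the percent of reads in Alb, for 76 respiratory chain genes on the left and all 11351 tested genes on the right, with 1 numbered point per library and 1 colour per group. On the left, tumor 1, tumor 2 and DKO liver 4 lie at 21.1 to 24.5% Alb and -0.57 to -0.94, and on the right the same libraries lie between -0.28 and -0.06.

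Exon length and level moved with the difference between DKO tumors and wild-type livers, and their part in it was not tested. Tested genes with an exon length under 1000 bases had a median of -0.25 over all genes and -0.63 over 52 members, and those of 1000 bases or more had -0.01 over all genes and -0.44 over 24 members. Among genes with a mean of 50 RPKM or more, the median was -0.51 over 51 members and -0.31 over all 1066 tested genes of that level, and 31.4 and 19.8% had all tumors below all wild-type livers. Members with under 10% of shared stretches had a median of -0.51 (44 genes), and those with 10% or more had -0.57 (32 genes). Over the lowest, middle and highest tercile of GC content, all tested genes had medians of -0.02, -0.01 and -0.04 between DKO tumors and wild-type livers, and members had -0.44, -0.49 and -0.65. Between DKO tumors and DKO livers the medians over the same terciles were 0.05, -0.10 and -0.26 for all tested genes and -0.23, -0.43 and -0.57 for members. Between DKO livers and wild-type livers they were -0.07, 0.08 and 0.23 for all tested genes and -0.25, -0.05 and -0.12 for members. The part of GC content in these differences was not tested.

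Markers of several cell types had summed levels whose ranges overlapped between the groups, and their part in the results was not tested. The 7 hepatocyte markers, none at 0 in any library, had a median difference of -0.82 between DKO tumors and wild-type livers, with 4 lower and 3 higher, and of -0.27 between DKO tumors and DKO livers, with 5 lower and 2 higher. Markers of macrophages summed to 34.7 to 185 RPKM in DKO tumors, 145 to 412 in DKO livers and 72.9 to 215 in wild-type livers, over 6 genes. Markers of stellate cells and fibroblasts summed to 54.9 to 234 RPKM in DKO tumors, 104 to 338 in DKO livers and 100 to 138 in wild-type livers over 7 genes, and those of cholangiocytes to 15.3 to 111 RPKM in DKO tumors, 26.8 to 163 in DKO livers and 24.7 to 38.4 in wild-type livers over 4 of 5 genes. Markers of endothelial cells summed to 21.4 to 47.4 RPKM in DKO tumors, 23.4 to 49.7 in DKO livers and 14.6 to 28.0 in wild-type livers over 5 genes, with a median difference of 0.53 between DKO tumors and wild-type livers. Markers of neutrophils summed to 4.0 to 26.5 RPKM in DKO tumors, 7.48 to 109 in DKO livers and 5.98 to 12.8 in wild-type livers over 3 of 4 genes, with a median difference of 1.47 between DKO livers and wild-type livers. None of these markers passed a limma adjusted p of 0.05 in the comparisons given, and those of lymphocytes summed to 2.46 to 10.9 RPKM in DKO tumors, 5.43 to 15.2 in DKO livers and 3.49 to 12.2 in wild-type livers.

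Lists of genes that work beside the chain had medians between -0.34 and 0.11 in DKO tumors against wild-type livers, where the members had -0.54 and 52.9% of all tested genes were negative. Of 22 tested assembly factors outside the symbol patterns, 0 passed a limma adjusted p of 0.05 in either direction, 22 were negative and the median was -0.27, with Cox17, a copper chaperone, at -0.42 and Sco2, which brings copper to complex IV, at -0.62. Of 21 electron carriers and entry points, 0 passed, 18 were negative and the median was -0.26, with Etfb, a subunit of the electron transfer flavoprotein, at -0.31 and Cyc1, the cytochrome c1 of complex III whose symbol the patterns miss, at -0.32. Of 19 genes of the citric acid cycle and pyruvate dehydrogenase, 0 passed, 14 were negative and the median was -0.25, with fumarase (Fh1) at -0.75 and malate dehydrogenase (Mdh2) at -0.13. Of 11 genes of ATP export and uncoupling, 0 passed, 7 were negative and the median was -0.08, with the phosphate carrier Slc25a3 at -0.42 and 2010107E04Rik at -0.08. Atpif1, the inhibitor of ATP hydrolysis by the ATP synthase, was picked out after its values were seen and averaged 37.5 ± 11.4 RPKM in DKO tumors, 24.9 ± 10.9 RPKM in DKO livers and 22.1 ± 4.91 RPKM in wild-type livers (SD, n = 4), with a difference from wild type of 0.71 ± 0.29 (limma adjusted p = 0.208).

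Among all tested genes, 52.9% were negative and 1.9% passed in either direction between DKO tumors and wild-type livers. Of 73 tested mitochondrial ribosomal proteins 0 passed and 69 were negative, with a median of -0.34, and the highest of them, Mrpl20 and Mrpl12, were at 0.08 and -0.63. Of 75 cytosolic ones 0 passed and 64 were negative, with a median of -0.31. Of 17 genes of protein import into mitochondria 0 passed and 15 were negative, with a median of -0.29, and the highest, Timm8b and Tomm70a, were at -0.15 and 0.06. The 16 tested genes of hypoxia and glycolysis had a median of 0.11 with 0 passing, and lactate dehydrogenase (Ldha) was at -0.05 and aldolase (Aldoa) at 0.35. Among 19 regulators of mitochondrial biogenesis and mitochondrial DNA upkeep the median was -0.21, and 1 passed as lower, where 0.67% of all tested genes did. The 1 that passed was Ppargc1b, a coactivator known to drive mitochondrial and lipid genes. It had 0.737, 0.775, 1.22 and 0.728 RPKM in DKO tumors, 1.99, 2.48, 1.42 and 2.33 RPKM in DKO livers and 4.56, 3.12, 1.91 and 4.63 RPKM in wild-type livers. Every tumor lay below every liver, and Ppargc1b fell by 1.25 ± 0.21 on the log2 scale in DKO tumors against wild-type livers (SE, limma adjusted p = 0.0178). The limma adjusted p of Ppargc1b was 0.0575 without tumor 1, 0.0614 without tumor 2, 0.0777 and 0.0732 on leaving out wild-type liver 1 and 4, 0.0991 with no filter on low values and 0.232 within the libraries of the tag L03. The highest members of that list, the nuclear receptor Ppara and the factor Yy1, were at -0.37 and -0.21. Of those chosen after their values were seen, the related coactivator Ppargc1a was at 0.10, and Nrf1 and Gabpa, which code for NRF1 and a subunit of GABP, were at 0.09 and -0.09. Polg2, the accessory subunit of the mitochondrial DNA polymerase, stood just outside the threshold at -0.91 (limma adjusted p = 0.0516).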

How the data were processed

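Total RNA from 4 DKO tumors, 4 DKO livers and 4 wild-type livers was poly(A)-selected and made into SOLiD libraries, per the labels' protocols. The authors deposited RPKM values per transcript on mm9, and BWA is named in the submitters' processing notes. The labels do not state how reads with several matches were counted, or whether coordinates start at 0 or 1.

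The entry with the longest exon length was kept per symbol (1520 symbols had several). RPKM steps gave back whole reads for at least 99.991% of values within 0.05 read, and library totals of 7.985 to 15.956 M reads. All 11351 genes that reached 0.5 RPKM in 4 or more libraries were fitted together on log2(RPKM + 1) with limma 3.58.1 (trend, robust; R 4.3.3) as 3 group means, with Benjamini-Hochberg adjustment over all tested genes at 0.05. Fold changes on this scale understate those of low genes. The steps were tested on simulated data. Members and lists were chosen with earlier results of these data known, so no p-value was computed over a list. GC content and 35-base stretches shared between genes came from GENCODE M21 transcripts, promoters from RefSeq (GRCm38.p6, not the build of the files).

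Named genes were, per class, the 2 with the highest mean level and those with the most negative and most positive difference of DKO tumors against wild-type livers, then any member past the threshold, the 2 most positive and 2 most negative in each of the other comparisons, and from other lists the 2 highest and any past the threshold. The highest cytosolic ribosomal proteins are not reported here. Other genes are marked where they appear or illustrate a form, a shared sequence or a promoter. Tumor and liver of the same number were taken to come from the same DKO animal by their shared codes, which the labels do not explain. Their deviations from the group means correlated at 0.117, 0.347, 0.368 and 0.00285 across genes. Alternatives were other scalings, pseudocounts and filters, voom, a replicate block, the tag, other library sets and leaving out each library. Floors for genes with 0 reads cover counting error only, while SE and SD values rest on the spread between libraries.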

Additional observations from a re-analysis of the deposited data

Results flagged for a closer look

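Of 96 sets of 4 libraries examined for a value standing apart by Dixon's criterion, 6 had one, and chance gives about 1 in 20. DKO liver 4 accounted for 4 of them. Its summed level of all members was 6784 RPKM, against 10442 to 10761 RPKM in the other DKO livers, and its summed level of complex I was 1900.4 RPKM, against 2967.9 to 3021.3 RPKM. The median deviation of the members from the wild-type mean was -0.61 in DKO liver 4, against 0.03 to 0.12 in the other DKO livers. Sdhb stood at 98.68 RPKM in DKO liver 4, against 162.3 to 169.1 RPKM in the others. Tumor 4 stood apart for Uqcrq, at 179.8 RPKM against 102.2 to 114.7 RPKM in the other tumors, and for Atp5l, at 0.4407 RPKM against 0.1384 to 0.1738 RPKM.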

How the results depend on the processing

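Between DKO tumors and wild-type livers, 0 members passed the adjusted threshold, and the count was 7 with median-of-ratios scaling, 6 with quantile normalization, 2 with a pseudocount of 0.1, 6 with only the 8 libraries compared, 4 with library totals free of Alb reads (chosen after seeing the data) and 1 with a replicate block, where the numbers shared with wild-type livers do not pair animals. Cox7c was among the members passing in each of these, with an adjusted p of 0.0284 under the replicate block. Cox7a1, which passed the filter through the livers, was among the 7, the 6 with quantile normalization and the 4. The number passing over all 11351 tested genes rose or fell too. It was 598, 478, 238, 303, 469 and 128 in the same settings and order, in place of 216. Other settings gave 0 members, and leaving out each library gave 0 to 5. Every value was lower in 16 members with totals free of Alb reads, in place of 26. The median was -0.63 to -0.39 without single libraries, -0.36 without DKO animals 1 and 2, and -0.31 after quantile normalization, and class medians under the settings run were weakest with quantile normalization at -0.37, -0.13, -0.20, -0.33 and -0.19 for complexes I to V. Cox5a turned to 0.31 with quantile normalization, 0.06 without DKO animals 1 and 2, 0.05 with totals free of Alb reads and 0.06 without tumor 1, tumor 2 and DKO liver 4 (also chosen after seeing the data), and Atp5e to -0.01 with voom. Without single libraries Cox5a ranged from -0.31 to 0.05 (0.04 without wild-type liver 3), Atp5e from -0.14 to 0.14 (-0.12 without tumor 2, -0.03 without tumor 3) and Ndufab1 from -0.01 to 0.14. The call of Ppargc1b was lost with no filter (adjusted p = 0.0991), the tag as a covariate (0.187) or 1 tag (0.232), the replicate block (0.054), without DKO animals 1 and 2 (0.166), without tumor 1, tumor 2 and DKO liver 4 (0.177), and without tumor 1, tumor 2, wild-type liver 1 or wild-type liver 4, and its difference without single libraries was -1.44 to -1.13.

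Between DKO tumors and DKO livers, the median was -0.10 without DKO animals 1 and 2, and 0 to 2 members passed and 12 to 45 had every value lower without single libraries, with 47 without tumor 1, tumor 2 and DKO liver 4. Smaller groups separate more easily, and the share of all tested genes with every value lower was not counted in these settings. With the tag as a covariate Ndufs4 stood at -0.01, Atp5s at -0.25 and Atp5l at 0.22, and Ndufs4 ranged from -0.0 to 0.39 without single libraries. Between DKO livers and wild-type livers, members with every value lower numbered 1 with median-of-ratios scaling, 3 without DKO animals 1 and 2, and 0 to 6 without single libraries, in place of 0. The same limit holds for the counts from fewer libraries. Negative members numbered 33 without the 3 libraries named above and 33 to 57 without single libraries, in place of 51. Atp5l turned to -0.13 with the tag as a covariate and to -0.13 within 1 tag. The cause of these shifts was not tested. The replicate block changed no other count of members passing, and the remaining 267 values of counts and medians moved by less than the limits set. The limit for a median was the pooled SD between libraries of a group, and for a count a fixed ratio to the main count. Shifts within these limits include -0.14 to 0.07 for DKO livers against wild-type livers without DKO liver 4. They also include -0.54 to -0.31 for DKO tumors against wild-type livers with quantile normalization.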
